A study of Mus musculus with 2 samples.

Results

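AMPA receptors are the glutamate-gated channels that carry most fast excitatory transmission in the brain. Expression of 9 genes of that receptor was followed through the 2 mouse libraries of a Slide-tags experiment. They were the pore-forming subunits Gria1, Gria2, Gria3 and Gria4, the transmembrane AMPA receptor regulatory proteins (TARPs) Cacng2, Cacng3 and Cacng8, and the cornichon homologues Cnih2 and Cnih3. These 9 of 32285 genes were taken by symbol from the gene list of both matrices, where each stood under 1 identifier. In Slide-tags, nuclei in a tissue section receive spatial barcodes from a bead array and are then sequenced by droplet single-nucleus RNA-seq. The adult library came from a 20 µm coronal section through the hippocampus of a male C57BL/6J mouse aged 56 days. The embryonic library came from a sagittal section through the brain of a C57BL/6J embryo at embryonic day 14 (E14), with no sex given. There was 1 library per tissue, so age, region and library cannot be told apart, and no test between the tissues could be made. Spatial positions were not analysed here.

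Each receptor is a tetramer of GluA1 to GluA4, the products of Gria1 to Gria4. GluA2, after RNA editing of its pore loop, keeps calcium out of the channel, so receptors without it pass calcium. TARPs bring the receptor to the surface, anchor it at synapses and slow its gating, and CNIH2 and CNIH3 bind the same channels, aid their export from the endoplasmic reticulum and slow their closing. In adult hippocampal pyramidal cells GluA1, GluA2, the TARP γ-8 (Cacng8) and CNIH2 are the best known partners, while many interneurons and thalamic relay cells are known for GluA4.

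The adult matrix kept 1609 nuclei with 15346746 UMIs (unique molecular identifiers, 1 per captured RNA molecule) and the E14 matrix 9036 nuclei with 58923882 UMIs, with medians of 6607 and 4204 UMIs per nucleus. Kept nuclei had at least 500 UMIs and under 5% of them mitochondrial, and the libraries shared 1 barcode. The level of a gene in a class is its UMI total there, per 1000000 UMIs of all genes from the same nuclei (CPM). Ranges in parentheses after a level, share or ratio are exact 95% intervals (Poisson, Clopper-Pearson and conditional binomial), which cover counting error only. Where 0 nuclei held a UMI, the share said to be allowed is that of 3 nuclei and not an exact limit. A nucleus took the class of the marker list that led its scores, and classes are called "-like" for that reason. 550 adult and 6263 E14 nuclei stayed unassigned. The score is a continuous range: 131 adult and 571 E14 nuclei passed the lead over the next list by less than 0.1, and 83 and 568 missed it by up to that much. Among nuclei named both by their own markers and by Louvain clusters, 94.0% of 1059 adult and 87.7% of 2065 E14 nuclei had the same class. The clusters were named with the same marker lists and the lead was chosen for this match, so it is not an independent check. The adult section held 88 thalamic-like nuclei beside the hippocampal classes. An E14 class called GABAergic without Dlx genes rests on 4 of its 5 markers (Gata2, Gata3, Tal1, Tal2, Sox14). That name is the name of its marker list: neither absence of Dlx genes nor presence of GABA synthesis genes was required of a nucleus. The 61 nuclei of this class held a higher median of UMIs of the thalamic list than of these markers. No cluster took its name, so its levels are those of a marker rule. E14 intermediate progenitor-, choroid plexus- and fibroblast-like nuclei also had a higher median for the thalamic list than for their own markers. Choroid plexus- and fibroblast-like nuclei are part of the non-neuronal gauge below. No E14 cluster was intermediate progenitor-, hypothalamic- or mural-like, so those levels rest on the marker rule too. With the class called GABAergic without Dlx genes left out, 7 of the 9 genes kept the E14 class with their highest level. The counts of called genes in the sums below were then as given.

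Classes outside the neuronal lineage served as a gauge of RNA from other cells, except for Gria4 in adult oligodendrocyte-like nuclei, which held it in their own clusters too. In the adult library the 3 classes used (oligodendrocyte-, microglia- and endothelial-like) had 649 to 1978 CPM summed over 6 of 6 pan-neuronal markers, against 4125 to 6047 CPM in the 5 neuronal classes. At E14 the 5 classes used (choroid plexus-, microglia-, endothelial-, mural- and fibroblast-like) had 1825 to 3428 CPM against 4151 to 5922 CPM in the 6 neuronal classes. No pan-neuronal marker was at 0 in any of them. The study's methods name a step that removes background RNA for the embryo, and the deposited E14 matrix was taken as made before that step. The part of RNA from other cells in the levels below was not tested.

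The genes differ widely in length, which in nuclear RNA counted with introns changes how many UMIs a transcript can give, so levels are compared between classes and not between genes. Coordinates follow GENCODE vM21 on GRCm38 (mm10). Gria1 lies on chromosome 11, 57011387 to 57330244 (plus strand), Gria2 on chromosome 3, 80681450 to 80802835 (minus strand), Gria3 on chromosome X, 41400854 to 41678601 (plus strand) and Gria4 on chromosome 9, 4417896 to 4796234 (minus strand). Cacng2 lies on chromosome 15, 77991748 to 78120028 (minus strand), Cacng3 on chromosome 7, 122670492 to 122769393 (plus strand) and Cacng8 on chromosome 7, 3390683 to 3415648 (plus strand). Cnih2 lies on chromosome 19, 5092868 to 5098521 (minus strand) and Cnih3 on chromosome 1, 181352628 to 181460641 (plus strand). Gene bodies ran from 5.65 kb for Cnih2 to 378 kb for Gria4, and those of the other pore subunits from 121 to 319 kb. No counted gene overlapped a member on its own strand. On the other strand Gm44151 overlaps Cacng8, A730060N03Rik overlaps Cacng2 and Yif1a overlaps Cnih2.

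Promoters of Gria2 and Gria4 are shown because these subunits led in different adult classes. Both are RefSeq windows on GRCm38.p6 from 250 bases before to 50 after the start of transcription, written 5′ to 3′ in the direction of the gene, with CG dinucleotides in capitals. Gria2 is chr3:80802786-80803085 and Gria4 is chr9:4796185-4796484, both on the minus strand.
Gria2: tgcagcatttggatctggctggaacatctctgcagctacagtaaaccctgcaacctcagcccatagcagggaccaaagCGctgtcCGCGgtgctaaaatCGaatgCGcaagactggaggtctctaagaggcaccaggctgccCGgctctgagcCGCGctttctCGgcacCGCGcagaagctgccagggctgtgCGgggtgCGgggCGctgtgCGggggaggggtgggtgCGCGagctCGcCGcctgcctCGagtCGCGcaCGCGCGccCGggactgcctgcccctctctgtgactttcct
Gria4: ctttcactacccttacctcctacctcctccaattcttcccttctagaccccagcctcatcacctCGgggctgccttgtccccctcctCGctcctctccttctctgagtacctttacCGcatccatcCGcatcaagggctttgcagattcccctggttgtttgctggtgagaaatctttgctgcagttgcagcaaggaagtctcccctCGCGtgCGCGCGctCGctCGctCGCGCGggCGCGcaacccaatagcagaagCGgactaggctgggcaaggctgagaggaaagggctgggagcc
The Gria2 window held 26 CG dinucleotides at 65.7% GC and the Gria4 window 17 at 59.7% GC. Over all 32851 promoters of the same length the medians were 7 and 52.7%. Neither held TATAAA on either strand, which 13.6% of all promoters do. Of the 7 members with a window (Gria2, Gria4, Cacng2, Cacng3, Cacng8, Cnih2, Cnih3), GGACAG, the letters at the end of the element bound by the repressor REST, was found on either strand in Gria2 and Cacng8 and in 22.2% of all promoters. The windows of Cacng2, Cacng3 and Cacng8 lie inside the gene bodies given above and not at their ends. These matches describe letters, not binding.

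In the adult section Gria1, the subunit whose tail is phosphorylated and recruited in long-term potentiation, was highest in CA1-like nuclei. Its level was 3681 (3609 to 3755) CPM in CA1-like, 2988 (2929 to 3047) in dentate granule-like, 2678 (2562 to 2799) in CA3-like, 2589 (2442 to 2742) in inhibitory-like and 523 (486 to 562) CPM in thalamic-like nuclei. CA1-like nuclei stood above all others, the CA3- and inhibitory-like intervals overlapped, and thalamic-like nuclei were below the other 4 neuronal classes. With classes from clusters, inhibitory-like nuclei ranked next to CA1-like ones, at 3257 (3111 to 3409) CPM. Dentate granule-like nuclei then had 2964 (2920 to 3009) and CA3-like nuclei 2737 (2617 to 2861) CPM. After thinning to 1000 UMIs, 96.5% (92.0% to 98.9%) of CA1-like and 35.0% (24.7% to 46.5%) of thalamic-like nuclei held a Gria1 UMI, against 13.0% (4.94% to 26.3%) of endothelial-like nuclei, with median depths of 18262, 13487 and 3437 UMIs.

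Gria2, the subunit that limits calcium entry, was at similar levels in the 3 hippocampal excitatory classes and lower elsewhere. CA3-like nuclei had 1961 (1861 to 2065) CPM, dentate granule-like 1895 (1848 to 1942) and CA1-like 1821 (1770 to 1873), and the intervals of neighbours in this order overlapped. Inhibitory-like nuclei had 629 (558 to 707) and thalamic-like nuclei 388 (356 to 422) CPM. In those classes 50.0% (30.6% to 69.4%) and 36.2% (25.8% to 47.8%) of nuclei held a Gria2 UMI after thinning, against 86.0% (79.2% to 91.2%) of CA1-like and 4.35% (0.531% to 14.8%) of endothelial-like nuclei.

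Gria3, an X-linked subunit found mostly with GluA2, was 839 (804 to 874) CPM in CA1-like, 599.5 (545 to 658) in CA3-like and 492 (469 to 517) in dentate granule-like nuclei. Thalamic-like nuclei at 420.4 (387 to 456) and inhibitory-like nuclei at 401 (345 to 464) CPM did not differ beyond their intervals. Over the neuronal classes it had the narrowest range of the 4 pore subunits, from 401 to 839 CPM.

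Gria4, the subunit with the fastest kinetics, ran in the other direction. It reached 1445 (1336 to 1560.5) CPM in inhibitory-like and 1056 (1002 to 1111) CPM in thalamic-like nuclei, and was 148 (121 to 178) in CA3-like, 99.1 (88.7 to 110.4) in dentate granule-like and 87.6 (76.8 to 99.6) CPM in CA1-like nuclei. The inhibitory- and thalamic-like levels lay above those of all other adult classes described, glia included. Thinned shares were 50.0% (30.6% to 69.4%) and 47.5% (36.2% to 59.0%) in these classes, 10.5% (5.99% to 16.7%) in CA1-like nuclei, and 0 of 46 endothelial-like nuclei, which allows a share of up to 6.52%.

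**Figure D1:**
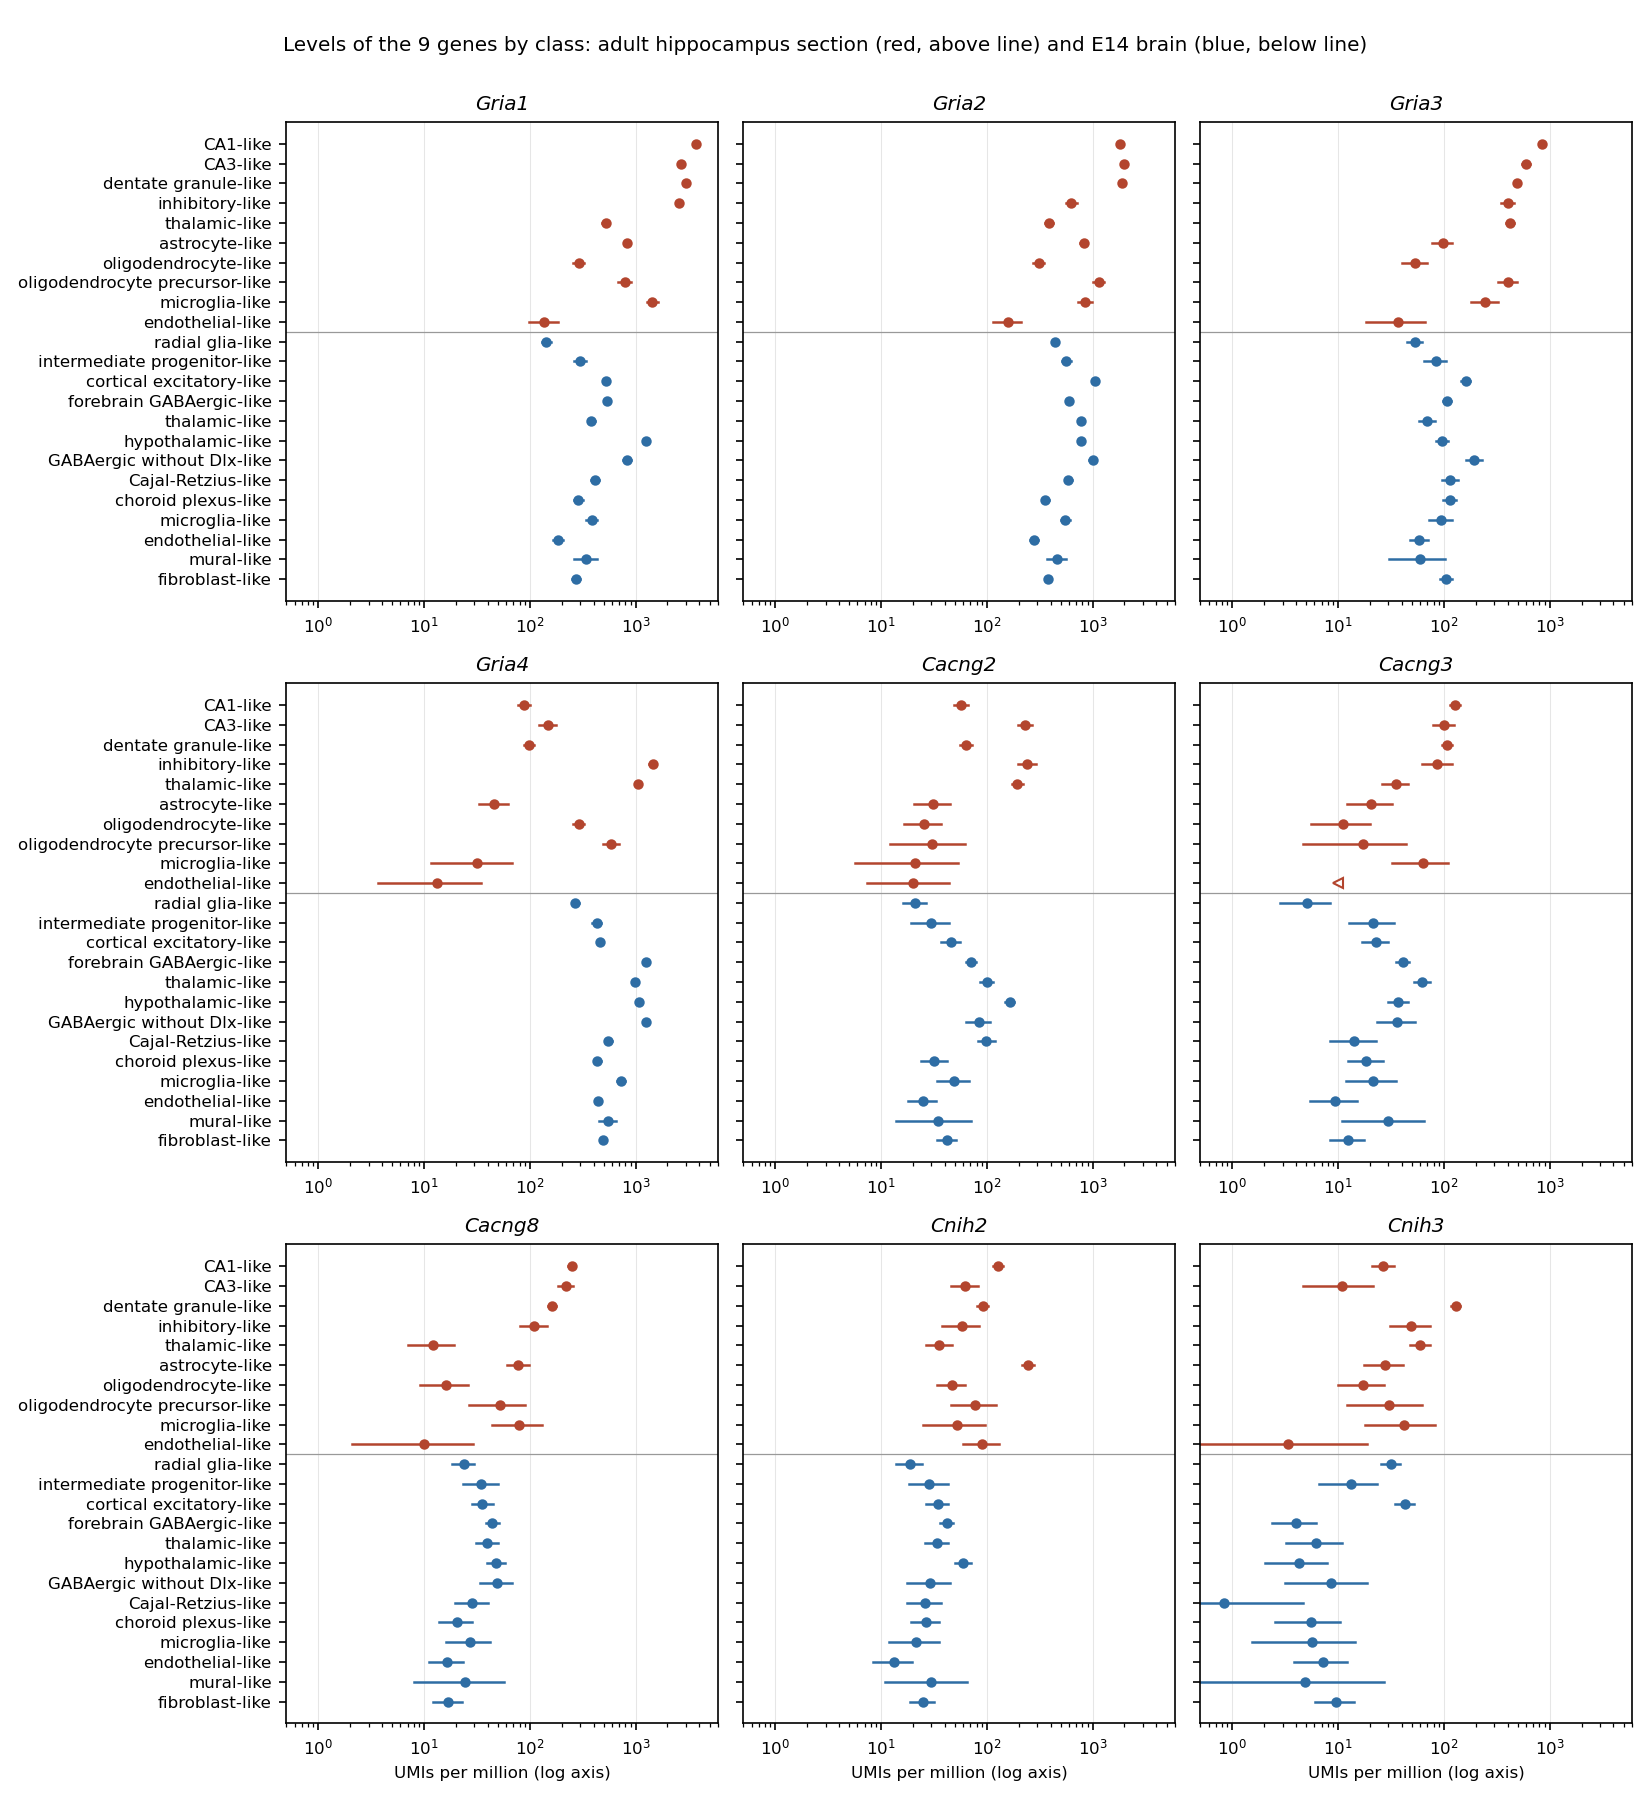
UMIs per 1000000 UMIs (log axis) of each gene in every class with at least 30 nuclei, adult classes in red above the line and E14 classes in blue below it. Points are levels, bars exact 95% Poisson intervals for counting error, and the open triangle marks the level of 3 counts where none was seen. In the adult library Gria1 and Gria2 lead in hippocampal excitatory classes, Gria4 in inhibitory- and thalamic-like nuclei, Cacng8 is at 12.1 CPM in thalamic-like nuclei, and Cnih3 is highest in dentate granule-like nuclei at 129 CPM.

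The make-up of the pore subunit pool can be compared between classes without comparing gene lengths. Gria2 made up 36.4% (34.9% to 37.9%) of all Gria1 to Gria4 UMIs in CA3-like nuclei, 34.6% (33.9% to 35.3%) in dentate granule-like and 28.3% (27.7% to 29.0%) in CA1-like nuclei. It made up 16.3% (15.0% to 17.6%) in thalamic-like and 12.4% (11.1% to 13.8%) in inhibitory-like nuclei, and the intervals of these 5 classes did not overlap except those of CA3- and dentate granule-like nuclei. Gria4 supplied 44.2% of the pool in thalamic-like and 28.5% in inhibitory-like nuclei but 1.36% to 2.74% in the 3 hippocampal excitatory classes. Inhibitory-like nuclei kept a Gria1 share of 51.1%, near that of CA3-like nuclei at 49.7%, while thalamic-like nuclei had 21.9%. These are shares of nuclear RNA, not of protein or of edited channels, and editing was not measured.

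**Figure D2:**
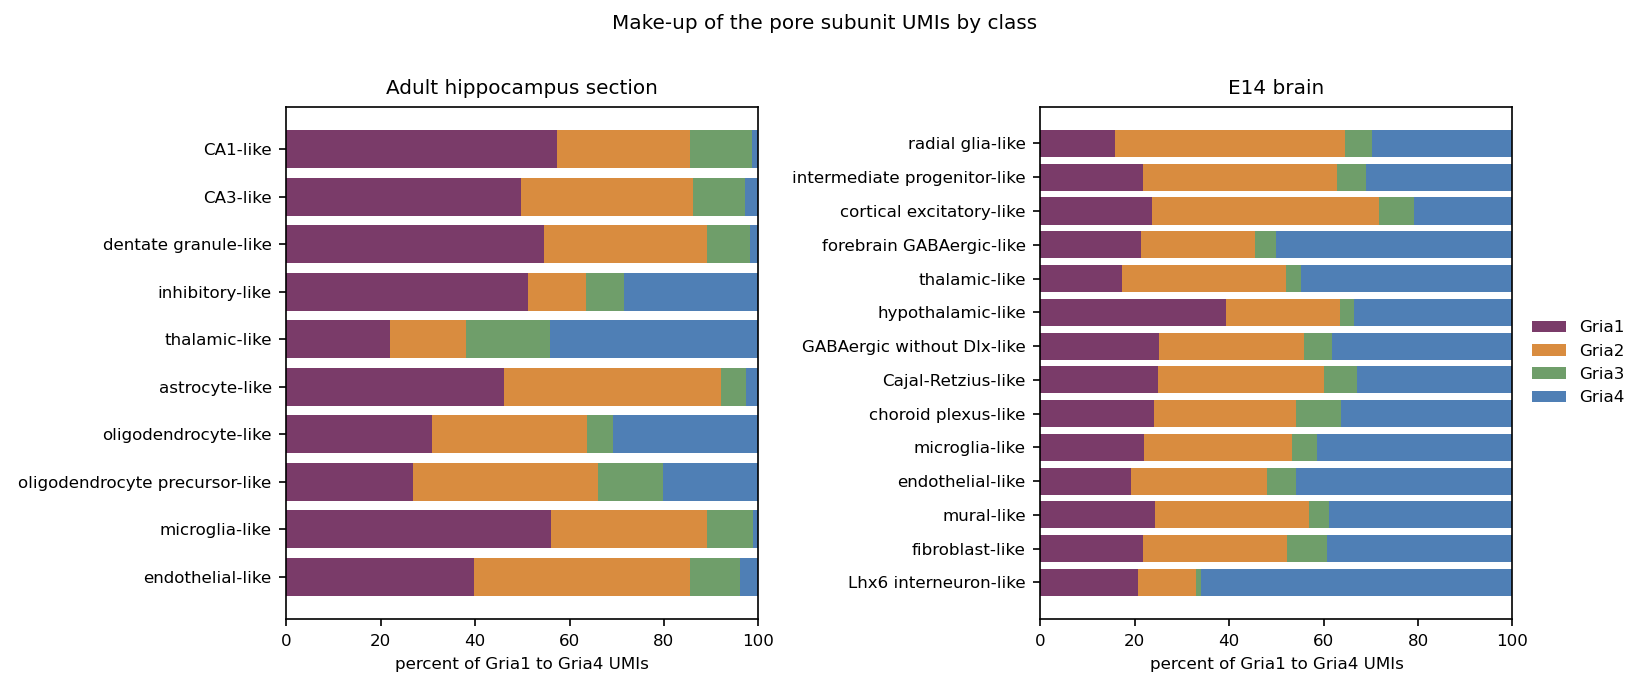
Percent of Gria1 to Gria4 UMIs from each subunit (x axis) in every class with at least 30 nuclei, adult on the left and E14 on the right, with the Lhx6 interneuron-like subset of the E14 forebrain GABAergic-like class as the last bar. The Gria2 segment is narrowest in adult inhibitory-like (12.4%) and E14 Lhx6 interneuron-like (12.5%) nuclei, and the Gria4 segment is at most 2.74% in adult hippocampal excitatory classes.

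Among the TARPs, Cacng8 and Cacng2 divided the adult classes differently. Cacng8 (γ-8), the main TARP of hippocampal synapses, had 249 (231 to 269) CPM in CA1-like, 218 (186 to 254) in CA3-like, 161 (148 to 176) in dentate granule-like and 109 (80.8 to 144) CPM in inhibitory-like nuclei. In thalamic-like nuclei it was at 12.1 (7.07 to 19.4) CPM and in endothelial-like nuclei at 10.0 (2.07 to 29.4), with overlapping intervals. The antisense gene Gm44151 over Cacng8 had 627 CPM in CA1-like, 303 in inhibitory-like and 24.3 CPM in thalamic-like nuclei. The sources used here do not state how strand was treated in counting, so reads of this pair cannot be told apart with certainty.

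Cacng2 (γ-2, stargazin), the first TARP described and the one lost in stargazer mice, followed another order. It had 241 (198 to 291) CPM in inhibitory-like, 230.1 (197 to 267) in CA3-like and 195 (172 to 219) in thalamic-like nuclei, with overlapping intervals, and then 63.8 (55.5 to 72.9) in dentate granule-like and 57.3 (48.6 to 67.1) CPM in CA1-like nuclei. CA3- and CA1-like nuclei, both pyramidal, had separate intervals for Cacng2 while their Cacng8 intervals overlapped. Cacng3 (γ-3), a TARP of forebrain excitatory synapses, varied less: 127 (113 to 141) CPM in CA1-like, 108 (96.9 to 119) in dentate granule-like, 100.2 (78.6 to 126) in CA3-like, 87.0 (61.8 to 119) in inhibitory-like and 35.0 (25.9 to 46.2) CPM in thalamic-like nuclei.

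The cornichons had leading classes of their own. Cnih3 was highest in dentate granule-like nuclei at 129 (117 to 142) CPM, followed by thalamic-like at 59.9 (47.8 to 74.2) and inhibitory-like nuclei at 49.1 (30.7 to 74.3), whose intervals overlapped. CA1-like nuclei had 26.6 (20.8 to 33.5) and CA3-like nuclei 10.8 (4.67 to 21.3) CPM. Cnih2 was 127 (114 to 141) CPM in CA1-like, 91.6 (81.6 to 102) in dentate granule-like and 62.3 (45.6 to 83.0) in CA3-like nuclei. It was 58.0 (37.9 to 84.9) in inhibitory-like and 35.7 (26.5 to 47.0) CPM in thalamic-like nuclei. The non-neuronal gauge ran from 46.5 CPM in oligodendrocyte-like to 90.4 (59.6 to 132) CPM in endothelial-like nuclei, the latter being 96.6 CPM by clusters. By markers the endothelial-like interval overlapped those of all neuronal classes but the thalamic-like one, which lay below it. These Cnih2 levels are therefore not set apart from that gauge. As means over nuclei the Cnih2 levels were 199 CPM in CA1-like, 119 in CA3-like, 119 in inhibitory-like and 86.5 CPM in thalamic-like nuclei.

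At equal depth few nuclei held a UMI of an auxiliary protein. After thinning to 1000 UMIs, a Cacng8 UMI was found in 19.6% (13.4% to 27.0%) of CA1-like and 1.25% (0.0316% to 6.77%) of thalamic-like nuclei. It was found in 0 of 28 inhibitory-like nuclei, which allows a share of up to 10.7%, although their summed level lay above the thalamic-like one. A Cacng2 UMI was found in 13.2% (4.41% to 28.1%) of CA3-like, 23.8% (14.9% to 34.6%) of thalamic-like and 6.29% (2.92% to 11.6%) of CA1-like nuclei. For Cnih3 the interval of the share was 7.11% to 16.1% in dentate granule-like nuclei, and the share was 3.50% (1.14% to 7.97%) in CA1-like nuclei. Of the 46 endothelial-like nuclei 0 held a UMI of any of these 3 genes, which allows a share of up to 6.52%, so the smaller shares cannot be told from theirs at this depth. Without thinning the Cacng8 shares were 84.2% in CA1-like, 12.5% in thalamic-like and 6.12% in endothelial-like nuclei.

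The highest Cnih2 level of the adult section, 245 (214 to 281) CPM, was in astrocyte-like nuclei. Cnih2 moved with the share of Malat1, a nuclear RNA that is scarce in droplets poor in nuclear content. In the 34 astrocyte-like droplets with under 1.5% Malat1 UMIs it was 893 (678 to 1154) CPM, and in the other 114 it was 193 (164 to 226). The same split gave 671 (416 to 1026) and 121 (108 to 135) CPM in CA1-like nuclei. Leaving out all droplets poor in Malat1 kept astrocyte-like nuclei highest, at 195 CPM. A limit of 1% mitochondrial UMIs gave 99.6 CPM in astrocyte-like and 124 CPM in CA1-like nuclei, so the leading class of Cnih2 rests on that limit. What sets these droplets apart was not tested.

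Glia of the section held pore subunits too, at levels that depended on how classes were drawn. Oligodendrocyte precursor-like nuclei had 1139 (1006 to 1285) CPM of Gria2, 785 (675 to 908) of Gria1, 587 (492 to 694) of Gria4 and 406 (328 to 496) of Gria3, and 60.6% (42.1% to 77.1%) of them held a Gria2 UMI after thinning. Their class rests on 34 nuclei, and the mean over nuclei was 303 CPM for Gria1. Astrocyte-like nuclei had 825 (765 to 887) CPM of Gria2 and 831 (772 to 894) of Gria1, and 864 and 792 CPM where classes came from clusters. Oligodendrocyte-like nuclei held Gria4 at 289 (257 to 325) CPM by markers and 324 CPM by clusters, with a UMI in 24.5% (19.2% to 30.4%) after thinning. Their Gria1 level of 290.1 CPM by markers was 45.3 CPM by clusters.

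In microglia-like nuclei Gria1 was at 1443 (1277 to 1624) CPM by markers but 31.8 CPM by clusters. The 44 nuclei named by markers included 6 outside the microglia-like cluster, and that cluster held the other 38. Endothelial-like nuclei had the lowest levels by markers for Gria1, Gria2, Gria3 and Gria4, between 13.4 and 157 CPM. By clusters, the highest Gria1, Gria2 and Gria3 levels among oligodendrocyte-, microglia- and endothelial-like nuclei were 63.5, 104 and 33.0 CPM.

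At E14 Gria1, Gria2 and Gria4 each had their own leading neurons. Gria4 was highest in forebrain GABAergic-like nuclei at 1256 (1225 to 1289) CPM and in the class called GABAergic without Dlx genes at 1254 (1172 to 1339.8). Hypothalamic-like nuclei at 1067 (1025 to 1109) and thalamic-like nuclei at 988 (944 to 1033) CPM followed. Cortical excitatory-like nuclei had 459 (431 to 489) CPM, within the 434 to 732 CPM of the 5 non-neuronal classes. Gria2, which restricts calcium, was highest in cortical excitatory-like nuclei at 1055 (1012 to 1099) CPM, with the GABAergic class without Dlx genes at 1001 (928 to 1078), and 67.0% (60.2% to 73.3%) of the cortical nuclei held a UMI after thinning, against 15.4% (11.4% to 20.2%) of fibroblast-like nuclei, with median depths of 6221 and 4304 UMIs. Thalamic-like nuclei had 769.6 (731 to 809.7), hypothalamic-like 769 (734 to 806), forebrain GABAergic-like 604 (582 to 626) and Cajal-Retzius-like nuclei 587 (544 to 632) CPM. The non-neuronal classes ran from 279 to 553 CPM.

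Gria1 at E14 led in hypothalamic-like nuclei at 1249 (1204 to 1295) CPM, where 59.2% (53.1% to 65.2%) held a UMI after thinning. The next class was the GABAergic one without Dlx genes at 825 (759 to 896) CPM, then forebrain GABAergic-like at 536 (515 to 557) and cortical excitatory-like at 521 (491 to 552), whose intervals overlapped. Thalamic-like nuclei, at 381 (354 to 410.0) CPM, were within the non-neuronal range, whose top was 387 CPM in microglia-like nuclei. Gria3 ran from 70.1 CPM in thalamic-like to 192 CPM in the GABAergic class without Dlx genes, and the non-neuronal range of 58.9 to 113 CPM covered 3 of the 6 neuronal levels.

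Radial glia-like nuclei, progenitors that still divide, had the lowest E14 levels by markers of 3 pore subunits. These were 143 (129 to 157) CPM of Gria1, 53.1 (45.1 to 62.1) of Gria3 and 270.0 (252 to 289) of Gria4, but Gria2 had 442 (419 to 467) CPM. The Gria1 and Gria4 intervals lay below those of every non-neuronal class. That of Gria3 overlapped with endothelial-, mural- and thalamic-like nuclei. Means over nuclei were 89.7 CPM for Gria1 and 164 CPM for Gria4. With classes from clusters, radial glia-like nuclei had 328 (314 to 343) CPM of Gria4. That interval overlapped the one of choroid plexus-like nuclei, 340 to 389 CPM. By markers the Gria2 share of the pool in radial glia-like nuclei was 48.7% (46.8% to 50.6%), as in cortical excitatory-like nuclei at 48.0% (46.6% to 49.5%). Intermediate progenitor-like nuclei had 41.1% (38.2% to 44.0%). Those nuclei were at 300 (264 to 339) CPM for Gria1, 83.6 (65.2 to 106) for Gria3 and 428 (384 to 474) for Gria4. The intervals of all 3 overlapped those of non-neuronal classes. Cnih3 at E14 was 42.6 (34.4 to 52.3) CPM in cortical excitatory-like and 31.5 (25.4 to 38.5) CPM in radial glia-like nuclei, whose intervals overlapped, and 13.1 (6.56 to 23.5) in intermediate progenitor-like nuclei. In the other 10 E14 classes it lay between 0.842 CPM, on 1 UMI in Cajal-Retzius-like nuclei, and 9.52 CPM.

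TARP levels at E14 overlapped between most neighbouring classes. Cacng2 was highest in hypothalamic-like nuclei at 165 (149 to 182) CPM and next in thalamic-like nuclei at 101 (86.9 to 116). Cacng3 was highest in thalamic-like nuclei at 62.4 (51.8 to 74.5) CPM, followed by forebrain GABAergic-like nuclei at 40.9 (35.4 to 47.1). Cacng8 ran from 28.6 to 49.0 CPM over the 6 neuronal classes, beside 16.5 to 27.1 CPM in the non-neuronal ones, and Cnih2 from 26.1 to 60.0 beside 13.2 to 29.6 CPM.

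Within the E14 forebrain GABAergic-like class, 63 nuclei led by Lhx6 interneuron markers, migrating cells that become cortical and hippocampal interneurons, had Gria4 at 1805 (1685 to 1932) CPM and Gria2 at 341 (289.7 to 398). Gria2 made up 12.5% (10.7% to 14.4%) of their pore subunit UMIs and 24.1% (23.4% to 24.9%) of those of the whole class. The adult inhibitory-like share was 12.4% (11.1% to 13.8%). Cacng3 was 84.1 (59.8 to 115) CPM in the Lhx6 subset and 40.9 (35.4 to 47.1) in the whole class, which includes it.

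The design sets adult against embryonic neurons. With 1 library per tissue a fixed size replaces a test: a gene is called at a ratio of 2 or more either way, among genes with at least 5 CPM in either group. Summed over 524 adult and 1702 E14 nuclei of neuronal classes, 7 of the 9 genes were at least 2-fold higher in adult neurons, beside 17.3% of all 13408 genes tested, and 1 was at least 2-fold lower, beside 21.4%. The median log2 ratio was 1.40 over the 9 genes and -0.14 over all genes tested. Gria3 went from 114 CPM at E14 to 592 in the adult, a ratio of 5.22 (4.92 to 5.53). Gria1 went from 642 to 2748 CPM, a ratio of 4.28 (4.18 to 4.39), and Cnih3 from 10.7 to 71.3 CPM, a ratio of 6.66 (5.54 to 8.06). Cacng8 had a ratio of 3.98 (3.61 to 4.40), Cacng3 of 2.65 (2.37 to 2.96) and Cnih2 of 2.21 (1.98 to 2.48).

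Gria4 was the exception, at 325 CPM in adult and 987 CPM in E14 neurons, a ratio of 0.329 (0.316 to 0.343). Cacng2 was at 106 and 91.4 CPM, a ratio of 1.16 (1.07 to 1.27) that did not reach the size set. Gria2 lay just past it at 2.08 (2.03 to 2.14), and its ratio was 1.95 with classes from clusters, short of a call. The Cnih3 ratio was 3.84 with classes from clusters. These sums mix hippocampal, thalamic and GABAergic nuclei in other proportions than the E14 sums, so pairs of like classes follow.

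Between CA1-like nuclei and E14 cortical excitatory-like nuclei, both of pallial excitatory kind, 5 of the 9 genes were higher, beside 17.9% of all genes tested, and 1 lower, beside 27.8%. The median log2 ratio was 1.89 over the 9 genes and -0.25 over all genes tested. Gria1 was 3681 against 521 CPM, a ratio of 7.06 (6.64 to 7.52). Cacng8 had 6.99 (5.52 to 8.97), Cacng3 5.58 (4.12 to 7.69), Gria3 5.22 (4.66 to 5.86) and Cnih2 3.70 (2.87 to 4.83). Gria4 was 87.6 against 459 CPM, a ratio of 0.191 (0.165 to 0.220), although its E14 level lay within the non-neuronal range given above. Gria2 at 1.73 (1.64 to 1.82), Cacng2 at 1.26 (0.973 to 1.64) and Cnih3 at 0.624 (0.451 to 0.860) were not called. As means over nuclei Cacng3 had 9.67, Cnih2 6.00 and Cacng2 1.94, and Cnih3 was called lower at 0.464 under the rule by summed marker UMIs.

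Between adult inhibitory-like and E14 forebrain GABAergic-like nuclei, 6 of the 9 genes were higher, beside 21.1% of all genes tested, and 0 lower, beside 21.0%. The median log2 ratio was 1.30 over the 9 genes and -0.06 over all genes tested. Cnih3 had a ratio of 12.3 (6.35 to 24.0) on 22 and 19 UMIs, Gria1 4.83 (4.51 to 5.18), Gria3 3.76 (3.15 to 4.46) and Cacng2 3.36 (2.68 to 4.19). Cacng8 at 2.47 (1.77 to 3.38) and Cacng3 at 2.12 (1.47 to 3.01) were past the size set with intervals that reached below it. Gria4 and Gria2 were near parity, at 1.15 (1.06 to 1.25) and 1.04 (0.918 to 1.18), and Cnih2 was at 1.39 (0.885 to 2.10). The adult class has 30 nuclei, the fewest of the neuronal classes described, and 6 of the settings listed at the end leave fewer than 30. With a lead of 0.15 the Cnih3 ratio was 7.87. With the mean over nuclei in place of the sum, Cnih2 had 2.61 and Cacng3 1.98.

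Between adult and E14 thalamic-like nuclei, 2 of the 9 genes were higher, beside 18.6% of all genes tested, and 1 lower, beside 24.3%. The median log2 ratio was 0.10 over the 9 genes and -0.12 over all genes tested. Gria3 was 420.4 against 70.1 CPM, a ratio of 6.00 (4.97 to 7.28), and Cnih3 59.9 against 6.19 CPM, a ratio of 9.69 (5.27 to 19.5) on 84 and 12 UMIs. Cacng8 was lower, at 12.1 against 39.7 CPM, a ratio of 0.306 (0.169 to 0.522), and 0.0665 under the rule by summed marker UMIs. Gria2 stood at 0.504 (0.456 to 0.557), at the edge of a call for lower, Cacng3 at 0.561 (0.394 to 0.787) and Cacng2 at 1.94 (1.61 to 2.34). Gria4 had 1.07 (0.997 to 1.14), Cnih2 at 1.06 (0.722 to 1.56) and Gria1 at 1.37 (1.24 to 1.52). Cnih2 had 2.85 and Cacng2 2.52 as means over nuclei, and without the nuclei of highest doublet scores Gria2 had 0.498 and Cacng3 0.469. Of the 9 genes, Gria3 alone was called higher in all 4 comparisons, the first of which includes the nuclei of the other 3. For all genes tested the share called higher in all 4 is not given here.

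**Figure D3:**
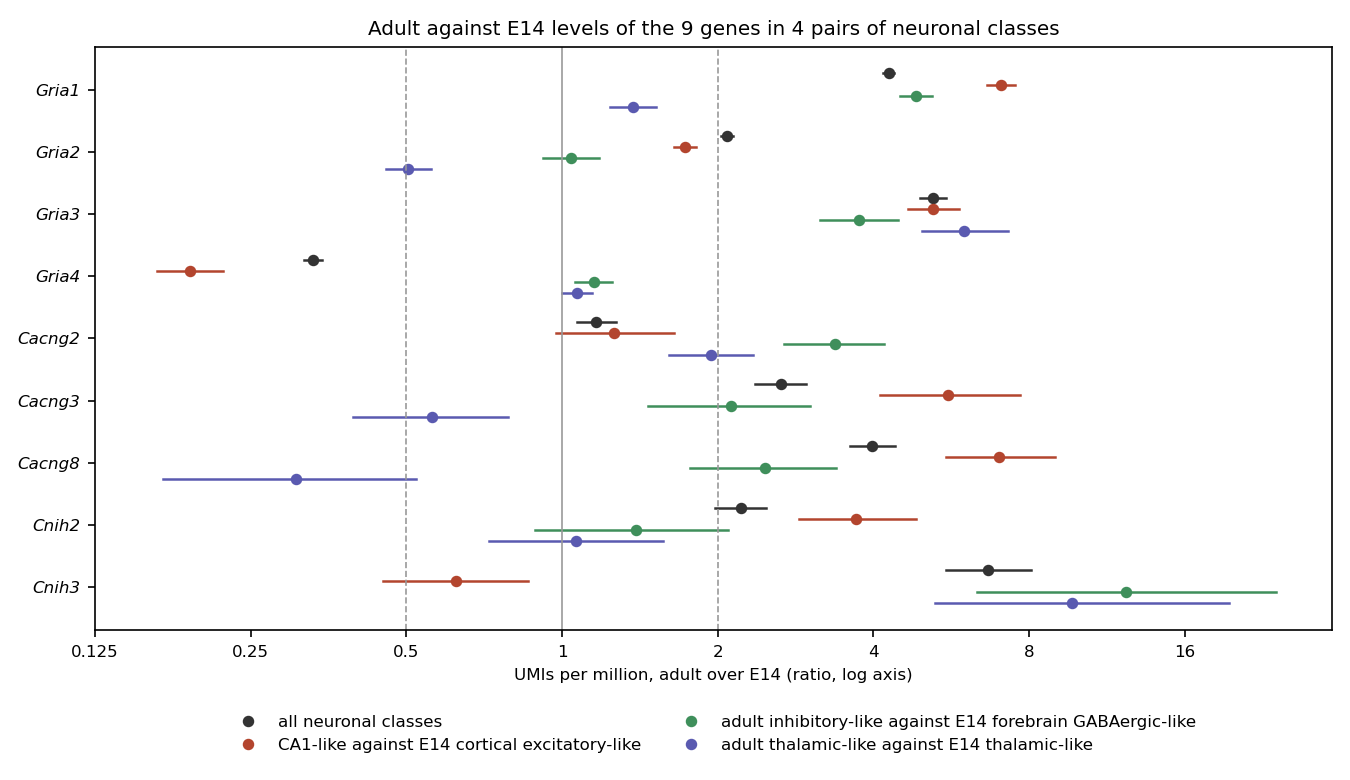
Ratio of UMIs per 1000000 UMIs, adult over E14 (log axis), for each of the 9 genes in 4 comparisons of neuronal classes, named by colour. Points are ratios, bars exact conditional 95% intervals for counting error, the solid line marks parity and the dashed lines a ratio of 0.5 and 2. Gria3 lies beyond 2 in all 4 comparisons, Gria4 below 0.5 in the summed and the CA1-like comparison only, and Cacng8 lies at 6.99 in CA1-like and 0.306 in thalamic-like nuclei.

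The Gria2 share of the pool was lower in the adult within each of the 3 pairs of like classes, but not against the E14 Lhx6 interneuron-like subset. Over all neuronal classes it was 29.9% (29.5% to 30.3%) in the adult and 30.1% (29.6% to 30.6%) at E14, with overlapping intervals. With classes from clusters the summed shares were 30.5% (30.1% to 30.8%) and 33.3% (32.8% to 33.8%), whose intervals did not overlap. By markers it was 28.3% in CA1-like against 48.0% in E14 cortical excitatory-like nuclei, 16.3% against 34.8% in thalamic-like nuclei, and 12.4% in adult inhibitory-like against 24.1% in E14 forebrain GABAergic-like nuclei. In each of these 3 pairs the adult share was lower and the intervals did not overlap. The Lhx6 interneuron-like subset of the E14 forebrain GABAergic-like class had 12.5% (10.7% to 14.4%). Its interval overlapped that of adult inhibitory-like nuclei, 11.1% to 13.8%. The E14 non-neuronal classes ran from 28.9% to 32.6%.

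The other genes of the AMPA receptor pathway were taken from a list of 32. In the summed neurons 29 passed the minimum level, 13 were at least 2-fold higher in the adult and 3 lower, beside 17.3% higher and 21.4% lower of all genes tested, with a median log2 ratio of 0.69 beside -0.14 over all genes tested. Frrs1l, which with Cpt1c acts in receptor assembly, had a ratio of 5.65 (5.10 to 6.28). Nsf, the fusion factor that binds GluA2, had 5.03 (4.77 to 5.31), Dlg2, the scaffold PSD-93, 3.54 (3.47 to 3.61), and Shisa6, an auxiliary protein that limits desensitisation, 5.70 (5.39 to 6.02). Adarb1, the enzyme that edits the GluA2 pore, had 6.27 (5.65 to 6.97), while its relative Adar at 1.31 (1.19 to 1.45) was not called. Among the pentraxins, which gather receptors at synapses, Nptx1 had 12.9 (10.1 to 16.5) and Nptxr 4.98 (4.35 to 5.70).

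Lower in adult neurons were the TARP Cacng4, with a ratio of 0.124 (0.105 to 0.147), the scaffold Grip1 with 0.468 (0.452 to 0.483) and the noelin Olfm2 with 0.141 (0.120 to 0.166). Cacng4 (γ-4) was at 101 CPM in E14 cortical excitatory-like nuclei and had 1 UMI in CA1-like nuclei, a ratio of 0.00373 (9.39e-05 to 0.0210). In the adult section it was highest in oligodendrocyte precursor-like nuclei at 531 CPM. The ubiquitous cornichons Cnih1 and Cnih4 were not called, at 0.951 (0.816 to 1.11) and 0.745 (0.636 to 0.871). Grip1 had a ratio of 4.18 (3.98 to 4.39) in the inhibitory comparison and 0.160 (0.144 to 0.178) in the CA1-like one.

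Within pairs of like classes, 12 of 29 tested pathway genes were higher and 6 lower for CA1-like nuclei, beside 17.9% and 27.8% of all genes tested. For inhibitory-like nuclei 12 of 27 were higher and 4 lower, beside 21.1% and 21.0%, and for thalamic-like nuclei 11 of 30 higher and 2 lower, beside 18.6% and 24.3%. Frrs1l, Abhd6, a lipase that reduces receptor surface delivery, Prrt1 and Nsf were called higher in all 4 comparisons. These comparisons share nuclei, and the share of all genes tested that were called higher in all 4 is not given here. For Prrt1 the inhibitory comparison rests on 9 adult UMIs, with a ratio of 2.12 (0.913 to 4.40) whose interval includes parity. Adarb1 had 17.2 (13.7 to 21.8) in thalamic-like and 1.43 (1.07 to 1.91) in CA1-like nuclei. Thalamic-like nuclei also had 29.1 (10.9 to 109) for the TARP Cacng5, on 84 and 4 UMIs.

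**Figure D4:**
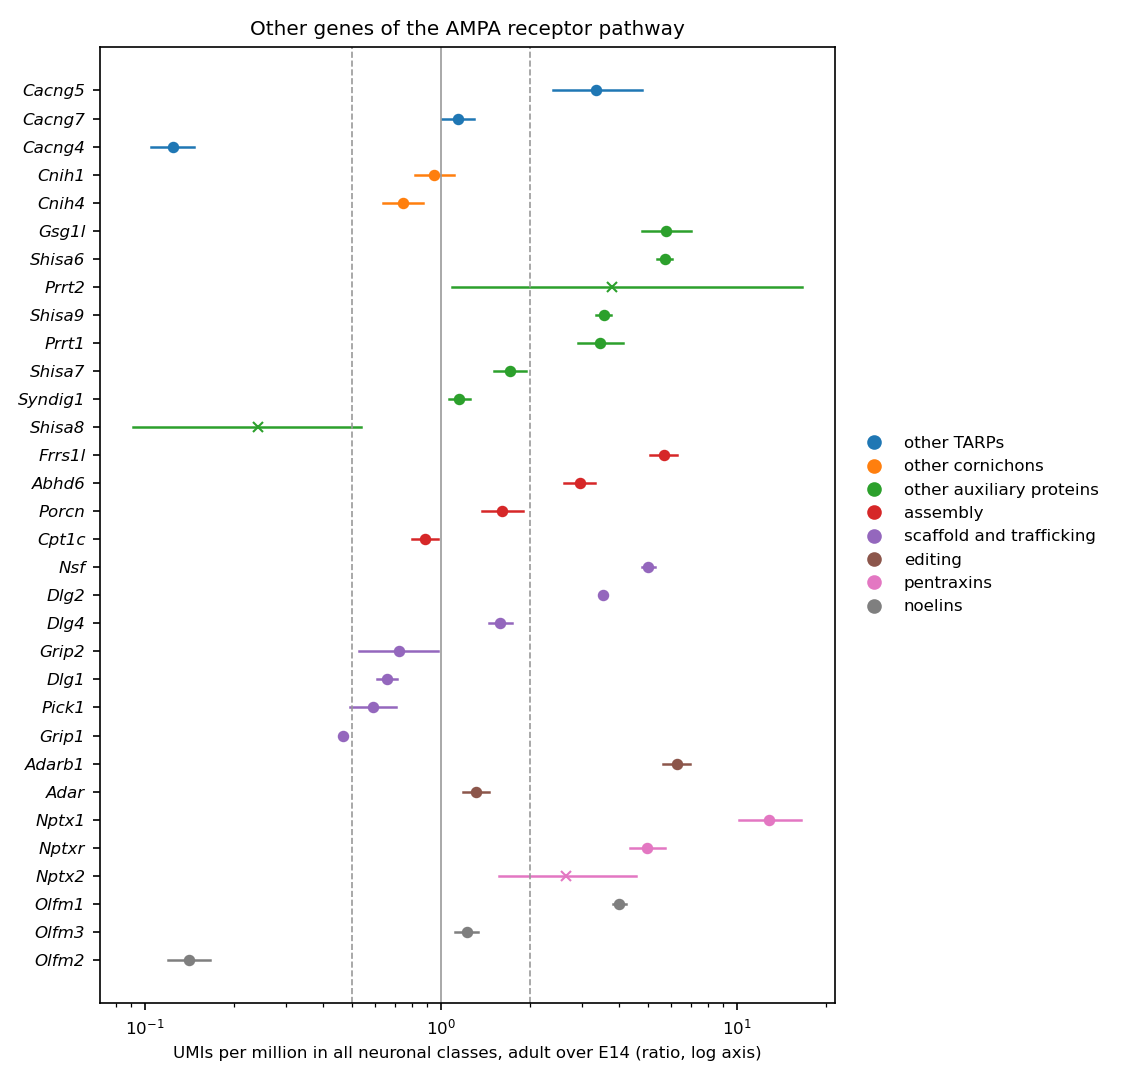
Ratio of UMIs per 1000000 UMIs in all neuronal classes, adult over E14 (log axis), for the 32 other AMPA receptor pathway genes, coloured by kind. Points are ratios, bars exact conditional 95% intervals for counting error, crosses mark genes under the minimum level, and dashed lines a ratio of 0.5 and 2. Nptx1 lies farthest to the right at 12.9, and Cacng4, Olfm2 and Grip1 lie below 0.5.

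Patterns were compared over the 23 classes of both libraries as Pearson correlations of log2(CPM + 10), given as a description because classes of a library share its depth and handling. Cacng8 followed Gria1 (r = 0.92), Gria2 (0.88) and Cacng3 (0.84), and Gria1 followed Cacng3 (0.89) and Gria3 (0.86). Gria4 stood apart, with r between -0.58 for Cnih2 and 0.48 for Cacng2. Over 13978 genes with at least 20 CPM in a class, the most like genes were Elmod1 (0.93), Cacng8 (0.92) and Gabra5 (0.91) for Gria1. For Gria2 they were Dok6 (0.90), Slitrk5 (0.89) and Cacng8 (0.88), for Gria3 Zfyve28 (0.93), Scn8a (0.92) and Olfr239 (0.92), and for Gria4 Robo1 (0.92), A230057D06Rik (0.90) and A330076H08Rik (0.89). For Cacng2 they were Clstn3 (0.91), Pclo (0.90) and Ddx25 (0.87), for Cacng3 Trank1 (0.91) and Gria1 (0.89), and for Cacng8 Dlgap2 (0.93), Gria1 (0.92) and Gm44151 (0.91), the last being its antisense neighbour. For Cnih2 they were Fbxl16 (0.91), Psd (0.90) and Grhl1 (0.89), and for Cnih3 Gm16267 (0.88), F730043M19Rik (0.85) and Gabrd (0.80).

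Nuclei of a class were not alike. The quartiles of CA1-like nuclei for Gria1 were 2829 and 4019.8 CPM of their own UMIs around a median of 3427, and those of inhibitory-like nuclei 475 and 2662 around 1339. The summed inhibitory-like level of 2589 CPM lay near the upper quartile, and the sum gives deeper nuclei more weight. At 1000 UMIs per nucleus, where counting alone gives a variance equal to the mean, the variance of Gria1 was 1.45 times the mean in CA1-like, 1.37 in dentate granule-like and 3.41 times in astrocyte-like nuclei. In E14 forebrain GABAergic-like nuclei it was 3.16 times the mean for Gria1 and 2.82 for Gria4, and the tenth of nuclei with the most Gria1 UMIs held 70.3% of them. For Gria2 it stayed between 1.02 and 1.25 in the 3 adult hippocampal excitatory classes.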

How the data were processed

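Single-nucleus RNA-seq UMI counts per gene and barcode were used as deposited by the authors, who aligned reads to mm10 with introns included. Per the file headers the count matrices came from Cell Ranger 6.1.2 for the adult and 7.0.1 for the E14 library. A nucleus was kept from 500 UMIs upward if under 5% of them were mitochondrial. Each nucleus was scored for every marker list as the mean natural log ratio of marker UMIs to those expected from its depth, 0.3 being added to both. It took the leading class with at least 3 UMIs from 2 marker genes, a score of 0.2 and a lead of 0.3 over the next list. Classes of at least 30 nuclei were described.

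The genes, marker lists and pathway list were chosen with earlier results of these data known. The class rule and its thresholds were set after class sizes, cluster names and values of the 9 genes had been seen: 2 rules and 8 combinations of score and lead were compared, the dropped rule taking the list with the highest ratio of summed marker UMIs, and the lead was taken for its match with Louvain clusters (Seurat 5.3.0 in R 4.3.3). All 9 genes were named in each class described, other pathway genes by counts with examples, and the 3 most like genes by correlation, 1 of which is not reported here. Sums, intervals and ratios were computed in Python 3.11.15 with numpy 2.4.6, scipy 1.17.1 and pandas 2.3.3, and checked on simulated data. Doublets were kept, and 1 alternative left out the 21 adult and 654 E14 nuclei of highest Scrublet score (scanpy 1.11.5). Other alternatives changed nucleus filters, class rules, scaling, the size of a call and the minimum level. Strand use in counting was not given in the sources used here. Promoter sequences came from RefSeq and gene positions from GENCODE.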

Additional observations from a re-analysis of the deposited data

Results flagged for a closer look

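Cacng8, which encodes the TARP γ-8, went in opposite directions in pairs of like neurons, and this drew attention to it. The adult to E14 ratio was 6.99 (5.52 to 8.97) for CA1-like against E14 cortical excitatory-like nuclei and 2.47 (1.77 to 3.38) for inhibitory-like against forebrain GABAergic-like nuclei. For thalamic-like nuclei it was 0.306 (0.169 to 0.522), on 17 adult and 77 E14 UMIs. These were 12.1 CPM, beside 10.0 in adult endothelial-like nuclei, and 39.7 CPM, beside 16.5 to 27.1 in E14 non-neuronal classes. The antisense gene Gm44151 had 627 against 175, 303 against 188 and 24.3 against 195 CPM in the same pairs, adult first. Reads of Cacng8 and Gm44151 cannot be told apart with certainty. With 1 library per tissue the difference between the pairs was not tested. Under the rule by summed marker UMIs, chosen after the data had been seen, the thalamic ratio was 0.0665.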

How the results depend on the processing

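Of 170 recomputed counts of calls, leading classes and summed Gria2 shares, 157 stayed within 1.5 times the reported count or within its interval. With classes from Louvain clusters the Gria2 share was 30.5% in adult and 33.3% in E14 neurons, 4 of the 9 genes kept their leading E14 class (no cluster was hypothalamic-like or of the GABAergic class without Dlx genes), and 2 genes were lower in the thalamic comparison (22.6% of all genes at this setting). Leaving out nuclei of highest doublet score gave 3 lower there (23.5%), a score of at least 0.4 gave 2 (23.6%) and the rule by summed marker UMIs 2 (23.2%), the last also giving 2 lower in the CA1-like comparison (27.3%), Gria4 and Cnih3. The score of 0.4 and the summed rule were chosen after seeing the data, as were a lead of 0.15 and leaving out the E14 GABAergic class without Dlx genes. Means over nuclei gave 4 higher in the thalamic comparison (23.2%), and 17.0 for Cnih3 there. With a ratio of at least 4 as the size of a call, 3 genes were higher (8.0% of all genes) and 0 lower (9.35%) in the summed neurons, 2 were higher in the inhibitory comparison (10.2%) and 0 lower in the thalamic one (10.4%). Of 558 recomputed ratios of the 9 genes 503 stayed inside the reported interval and 0 called ones changed direction. Cnih3 in the thalamic comparison reached 25.0 under the rule by summed marker UMIs and 17.7 under clusters. The causes were not tested.

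Scaling by the median ratio moved the median log2 ratio of all genes from -0.14 to near 0 in the summed comparison. In the CA1-like comparison it moved from -0.25 to -0.07. In the summed neurons 7 genes were higher (19.7% of all genes) and 1 lower (18.6%). In the CA1-like comparison 5 were higher (21.0%) and 1 lower (24.0%), the same counts as in the main setting. The thalamic comparison then had 3 higher (20.2%), with Cacng2 at 2.01, and 1 lower (22.8%). Fewer than 30 adult inhibitory-like nuclei, and so no value for that pair, were left by a minimum of 1000 or 2000 UMIs, a limit of 1% mitochondrial UMIs, leaving out droplets poor in Malat1, a score of 0.4 and the rule by summed marker UMIs. Levels stayed inside their intervals in 2044 cases and left them in 278. Of 180 shares of nuclei, 91 at a depth of 2000 UMIs lay inside the interval at 1000 UMIs. No paired analysis was possible because each tissue has 1 library. The counting intervals hold no variation between animals.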

Other observations

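Some of the other pathway genes, picked after their values had been seen, had a leading class of their own in the adult section. Grip1, a scaffold that binds the tail of GluA2, was at 5238 CPM in inhibitory-like nuclei and 590.2 CPM in thalamic-like nuclei. Adarb1, the editing enzyme, was at 717 CPM in thalamic-like nuclei and 188 in CA3-like nuclei. Shisa9, an auxiliary protein of dentate granule cells, was at 936 CPM in thalamic-like and 698 CPM in dentate granule-like nuclei. At E14 it was 522 CPM in thalamic-like nuclei and 74.6 CPM in cortical excitatory-like nuclei.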
